A study of Homo sapiens with 2 samples.

Results

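Open chromatin that was wide, and that stood alone in primed cells, is described here. The cells were WIBR3, an established line of human embryonic stem cells, and the assay was ATAC-seq, which tags accessible DNA with a transposase and sequences the tagged fragments. Within each library, peaks on chromosomes 1 to 22 and X that overlapped or touched were joined into regions. The regions were chosen by width and by absence from a peak list: a primed region was called isolated and wide when it spanned at least 500 bp and no region of the hTBLC library lay within 1000 bp of it. The rule kept 5710 of the 65338 wide primed regions, or 8.74%, out of 242009 primed regions and 492868 regions in the 2 libraries. The mirrored rule kept 6364 of 63525 wide hTBLC regions, or 10%.

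Both libraries came from this line, with 50000 living cells collected for each. One group was primed cells, the conventional cultured state of human embryonic stem cells, and the other was hTBLCs, an abbreviation the labels do not spell out, in a study of totipotency sought by repressing the spliceosome, the machinery that removes introns. The labels give both groups the cell type hESC and name no agent, dose, time or passage for either. Each group is a single library, so the spread between replicates is unknown and the states were not tested against each other. Since width and presence in the lists set membership, their widths, pileups and folds are given as a description. A pileup is the number of reads or fragments stacked at a region's summit. Intervals are 95%, Wilson for shares and exact Poisson for a single pileup, and cover counting error only. At the starts of 6 primed pluripotency marker genes with a RefSeq start window, both libraries had a region. Neither library had one at the windows of 2 naive marker genes and of 3 marker genes of the 8-cell stage. These few genes do not stand for all genes of their kind. In the wider lists below, the naive marker TFCP2L1 stood at 63 in primed and 31 in hTBLC at its start. The 8-cell gene H3Y1 stood at 18 in primed and 0 in hTBLC. The 1 fibroblast marker with a window, TWIST2, was open in both, with a pileup of 31 in primed and 27 in hTBLC. In bulk chromatin, a site open in fewer cells and a site less open in each cell cannot be told apart.

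Regulatory DNA in mammals consists of promoters, which lie at gene starts and often hold many CG dinucleotides, and of distal elements such as enhancers, which lie within or between genes and are more often specific to a cell state. Accessible regions at promoters of widely used genes tend to stay open in all cell types. Primed human pluripotent cells resemble the epiblast after implantation and have epithelial character.

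Few of the isolated wide primed regions lay at gene starts, and for those RefSeq gives the sequence. They overlapped the RefSeq start window, 250 bases before to 50 after the start, of 142 genes, 85 protein-coding and 57 lncRNA genes. The sequences below show the 250 bases before the start on the gene's own strand, 5′ to 3′, from RefSeq on GRCh38.p14, the assembly whose primary coordinates hg38 shares. The first 3 are starts with the E-box letters CACCTG in capitals, or, where the other strand holds them, their complement CAGGTG. They are shown because these letters were more frequent at such starts than at other starts. RAB17 and GRHL3 are among the strongest starts, while AP1M2 was chosen after its values were seen, for its 3 matches. PIP5KL1 and C1orf210, with 2 matches each, are also among the strongest starts but are not shown, and PROM2, with a pileup of 83, had none. The other starts were not sorted by epithelial function, so whether the letters go with epithelial genes was not tested. RAB17 (chr2:237590735-237590984, minus strand) encodes a small GTPase of epithelial membrane traffic, GRHL3 (chr1:24319107-24319356, plus strand) a grainyhead transcription factor of surface epithelia, and AP1M2 (chr19:10587313-10587562, minus strand) the epithelial subunit of the AP-1 clathrin adaptor.
RAB17: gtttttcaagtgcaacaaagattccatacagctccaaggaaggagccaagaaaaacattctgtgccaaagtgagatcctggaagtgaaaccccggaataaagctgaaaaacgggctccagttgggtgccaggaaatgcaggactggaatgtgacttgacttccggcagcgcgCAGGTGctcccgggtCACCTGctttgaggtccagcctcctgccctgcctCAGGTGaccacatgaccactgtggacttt
GRHL3: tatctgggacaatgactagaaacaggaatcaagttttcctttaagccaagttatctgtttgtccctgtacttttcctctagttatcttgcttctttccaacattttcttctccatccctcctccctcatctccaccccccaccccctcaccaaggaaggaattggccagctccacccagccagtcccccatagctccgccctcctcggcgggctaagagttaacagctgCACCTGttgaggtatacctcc
AP1M2: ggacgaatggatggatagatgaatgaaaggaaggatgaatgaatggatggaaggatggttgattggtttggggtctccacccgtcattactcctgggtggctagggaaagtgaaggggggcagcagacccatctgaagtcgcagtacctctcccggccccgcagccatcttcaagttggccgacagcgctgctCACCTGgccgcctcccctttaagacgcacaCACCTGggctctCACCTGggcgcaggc

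The next 3 have each CG in capitals, to show starts that differ in their number of CG. ZNF154 (chr19:57709205-57709454, minus strand) and ZNF671 (chr19:57727625-57727874, minus strand) are neighbouring zinc finger genes, and CACNA1D (chr3:53494361-53494610, plus strand) encodes a calcium channel subunit.
ZNF154: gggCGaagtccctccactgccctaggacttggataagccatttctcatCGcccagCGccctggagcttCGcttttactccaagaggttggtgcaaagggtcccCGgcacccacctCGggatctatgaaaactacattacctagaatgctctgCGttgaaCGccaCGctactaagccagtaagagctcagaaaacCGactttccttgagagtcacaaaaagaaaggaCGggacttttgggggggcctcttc
ZNF671: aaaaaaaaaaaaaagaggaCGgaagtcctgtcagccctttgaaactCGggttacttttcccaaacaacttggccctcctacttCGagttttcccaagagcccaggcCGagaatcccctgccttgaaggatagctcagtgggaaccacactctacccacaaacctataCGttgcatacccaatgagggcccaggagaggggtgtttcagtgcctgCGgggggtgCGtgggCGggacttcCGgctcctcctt
CACNA1D: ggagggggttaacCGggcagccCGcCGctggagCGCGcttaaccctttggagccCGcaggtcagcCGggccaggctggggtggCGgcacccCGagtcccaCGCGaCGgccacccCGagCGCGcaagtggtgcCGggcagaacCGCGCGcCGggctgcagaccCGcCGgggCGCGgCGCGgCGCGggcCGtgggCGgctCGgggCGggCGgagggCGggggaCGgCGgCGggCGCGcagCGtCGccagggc

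The start of RAB17 held 3 E-boxes, which began 78, 63 and 29 bases before the start. All 250 bases lay inside a region of pileup 99 (80.5 to 121). The summit of this region, where the pileup was read, lay 396 bases before the RAB17 start. It was 30 bases before the start of the lncRNA gene RAB17-DT. At AP1M2 the 3 matches began 57, 27 and 15 bases before the start, in a region of pileup 32 (21.9 to 45.2) that covered 231 of the 250 bases. GRHL3 had 1 match in these bases, 21 before the start, and a pileup of 87 (69.7 to 107). In the 250 bases before the start, ZNF154 had 11 CG, ZNF671 had 9 and CACNA1D had 41. The region at CACNA1D covered 138 of the 250 bases, and its summit was 512 bases before the start.

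Over the 142 starts, the E-box letters occurred in 50 windows of 300 bases, or 35.2% (27.8 to 43.4). The share was 19% (18.4 to 19.7) of 13933 starts at other wide primed regions, 13.9% (9.06 to 20.6) of 137 starts at isolated wide hTBLC regions and 20.6% of all 27195 starts. Among starts with fewer than 15 CG, the share was 31.9% (23.4 to 41.9) against 22% (20.4 to 23.7) at other wide primed regions, so those intervals touch. With 15 CG or more it was 41.7% (28.8 to 55.7) against 18.3% (17.7 to 19.1). Protein-coding starts with fewer than 15 CG held them in 24% (14.3 to 37.4), which includes the 20.1% at other wide primed regions. Some starts share a region, such as RAB17 and RAB17-DT, so the intervals are narrower than independent sites would give. E-boxes were 1 of 15 motifs searched.

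The starts under isolated wide primed regions held a median of 7 CG in 300 bases, against 26 at other wide primed regions, 4 at isolated wide hTBLC regions and 14 over all starts. In 33.8% there were 15 CG or more, compared with 82.3% at other wide primed regions and 10.9% at isolated wide hTBLC regions. The KLF/SP letters GGGCGG, which overlap CG, followed the same order, with 43.0% (35.1 to 51.2), 70.3% and 19%. All motifs were read on both strands. The other 13 were the octamer (ATGCAAAT), those of SOX (ACAATGG), AP-1 (TGANTCA), TEAD (GGAATG), OTX (TAATCC), GRHL (AACCNGGTT), TFAP2 (GCCNNNGGC), ETS (CCGGAAGT), FOXA (TGTTTAC) and CTCF (CCCTNGTGG) factors, AGATAAG for zinc finger factors of the GATA family, and the longer NFI and NRF1 motifs. AP-1 letters occurred in 10.6% (6.51 to 16.7) of the starts, against 7.73% of all starts. OTX letters were also in 10.6% (6.51 to 16.7), against 6.37% of all. SOX letters were in 5.63% (2.88 to 10.7), against 3.15%. The intervals of AP-1 and SOX include the share over all starts, and that of OTX begins just above it. TEAD, ETS and CTCF letters were also above their share over all starts. Those of the octamer, GATA, GRHL, TFAP2, FOXA, NFI and NRF1 were below it. TFAP2 letters were in 19.7% against 23.1%, and FOXA letters in 2.11% against 3.41%. At starts with no region in either library, with a median of 3 CG, AP-1, OTX and SOX letters were in 11.4%, 9.21% and 4.43%. Those shares lie inside the intervals above. A match is a description of letters, not a bound site.

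**Figure D1:**
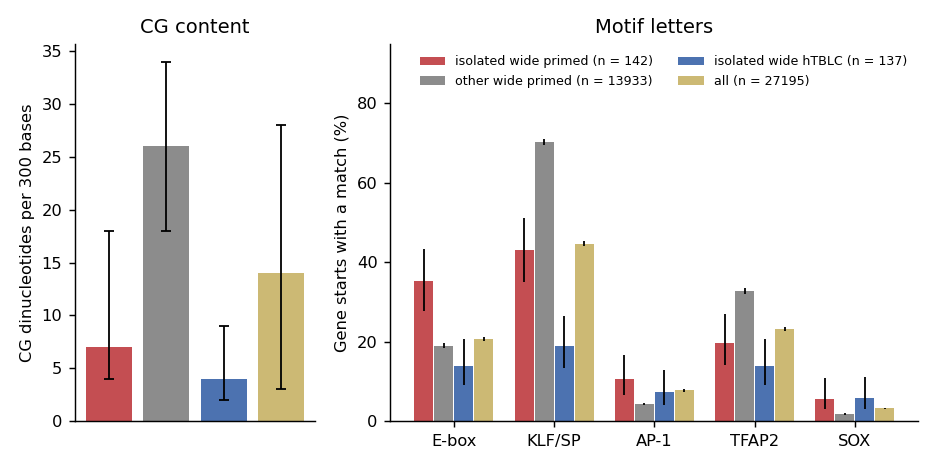
Left, CG dinucleotides in the 300 bases around RefSeq gene starts (bar, median; line, quartiles). Right, percent of starts with the letters of 5 motifs (line, Wilson 95% interval). Colours are shared by both panels and named in the right one; the E-box share at isolated wide primed regions is 35.2% against 20.6% over all starts, while their CG median of 7 lies between 4 and 26.

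The strongest of these regions, chr5:157651215-157652398, had a pileup of 112 (92.2 to 135), and the nearest hTBLC region was 12645 bp away. Its summit lay 60 bases before the start of the lncRNA gene LOC105377675. It also reached the start window of SOX30, a SOX factor gene of male germ cells, but its summit was 692 bases inside that gene, and it covered 0 of the 250 bases before the SOX30 start. LOC107985278, a lncRNA gene, came next with 102 (83.2 to 124), before RAB17. ZNF154 had 92 (74.2 to 113), and its neighbour ZNF671 had 64 (49.3 to 81.7). PIP5KL1, a phosphoinositide kinase-like gene, had 88 (70.6 to 108), with 2 E-boxes. Its RefSeq start lies inside the annotated gene, 3288 bp from the nearer end of it. PROM2, which encodes a prominin of membrane protrusions, had 83 (66.1 to 103), and C1orf210 had 76 (59.9 to 95.1) with 2 E-boxes. SLC30A4-AS1 had 72 (56.3 to 90.7), CACNA1D 71 (55.5 to 89.6) and ARHGEF19 70 (54.6 to 88.4). The windows of SOX30, ZNF154, PROM2, CACNA1D and ARHGEF19 held no E-box. SLC30A4-AS1 had 1 in its window but none in the 250 bases before the start. Among the strongest starts, the regions at RAB17, GRHL3, PROM2, C1orf210 and PIP5KL1 each had an hTBLC region 2061 to 2565 bp away. That of ZNF154 stood 26320 bp from the nearest.

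Chosen after their values were seen, several starts belonged to genes of meiosis and the germ line. TERB1, a meiotic telomere protein, had 20, PSMA8, a testis proteasome subunit, had 18, and SHOC1, a meiotic recombination factor, had 10. The nearest hTBLC regions were 28157, 29760 and 34644 bp away. Starts of interferon-response genes were also covered. BST2, which encodes tetherin, had 37 (26.1 to 51.0), IRF5 had 34 (23.5 to 47.5) and OAS3 had 18. Their nearest hTBLC regions were 1616, 1669 and 5259 bp away. These genes were picked by eye from the 85, and no share over other starts was computed for them.

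The isolated wide primed regions were weak beside the other wide ones. Their median pileup was 18, with quartiles of 13 and 28 and a range of 6 to 184, against a median of 43 in the 59628 other wide primed regions. The authors' fold enrichment at the summit had a median of 5.74 against 9.11. Isolated wide hTBLC regions had the same median pileup, 18, and a median fold of 5.41. By pileup, 407 isolated wide primed regions were under 10, 2667 from 10 to under 20, 1940 from 20 to under 40, 661 from 40 to under 100 and 35 at 100 or more. At 100 or more there were 17 isolated wide hTBLC regions.

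**Figure D2:**
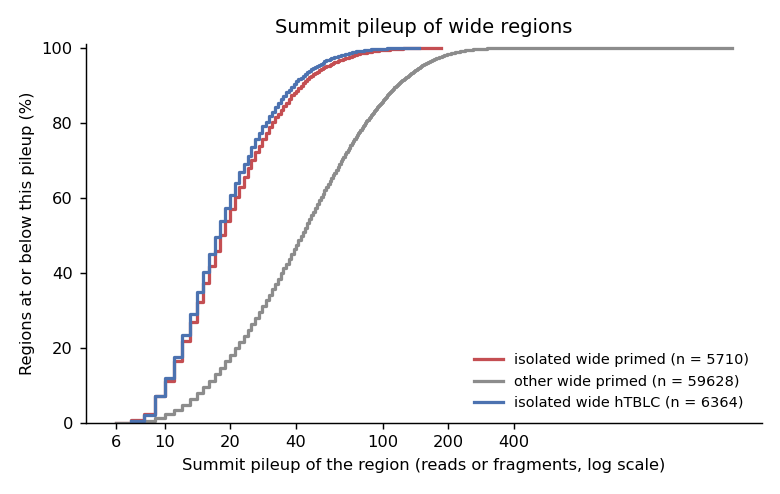
Cumulative share of regions (percent) by summit pileup (log scale) for isolated wide primed, other wide primed and isolated wide hTBLC regions. The curves of both isolated sets nearly coincide around their median of 18, and the curve of the other wide primed regions lies to the right with a median of 43.

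The absence of a call in hTBLC rests on depth and on the list. The lowest pileup of any hTBLC peak was 7, and 4466 regions (78.2%) had a pileup whose lower bound, scaled by the relative depth of 1.09, exceeded it. Against the median hTBLC region, with a pileup of 16, this held for 1966 regions (34.4%). The hTBLC list has no line at 327 of its ranks. By the pileup of the next listed peak, 26 of these would be at 100 or more, 70 at 40 to under 100, 75 at 20 to under 40, 114 at 10 to under 20 and 42 lower. A primed region whose counterpart stood on such a line counts as isolated here, so for any single region among the 35 strongest a missing line and an uncalled site cannot be told apart.

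Width and isolation varied within the set. The median width was 599 bp against 711 bp in other wide primed regions, and 146 regions (2.56%) reached 1000 bp against 19% of those. A single summit was present in 57.8%, compared with 40.7% of other wide primed regions. The nearest hTBLC region was a median of 4872 bp away, with quartiles of 2477 and 9090. It was over 10 kb away for 1252 regions (21.9%) and over 50 kb away for 23. Just inside the width limit, at 500 to 519 bp, 810 regions had a median pileup of 17. Just outside it, at 480 to 499 bp, 1017 had 15. At 1001 to 1200 bp from an hTBLC region, 225 had a median pileup of 20, and at 801 to 1000 bp 246 had 20.

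By the summit of the strongest peak, 216 isolated wide primed regions, or 3.78% (3.32 to 4.31), lay within 1 kb of an end of a protein-coding gene, either the start or the 3′ end. This was below the 21.4% (21.1 to 21.7) of other wide primed regions and above the 2.07% (1.75 to 2.45) of isolated wide hTBLC regions. The gap to other wide primed regions grew with signal. Under a pileup of 20 the shares were 4.00% (3.36 to 4.75) and 5.01% (4.59 to 5.46). From 20 to under 40 they were 2.99% (2.32 to 3.85) and 10.6% (10.2 to 11.1). At 40 and over they were 5.03% (3.64 to 6.91) and 32.4% (31.9 to 32.9).

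Most isolated wide primed regions, 3604 or 63.1% (61.9 to 64.4), lay inside a gene and away from such ends, and 1890 (33.1%) lay between genes. Leaving out those at gene ends, 65.6% (64.3 to 66.8) were inside a gene, against 62.1% (61.7 to 62.6) of other wide primed and 56.1% (54.8 to 57.3) of isolated wide hTBLC regions. Under a pileup of 20 the shares inside a gene were 67.1% (65.4 to 68.8) for isolated primed, 60.4% (59.4 to 61.4) for other wide primed and 54.8% (53.2 to 56.5) for isolated hTBLC regions. At 40 and over the 3 shares were 61.7% (58.0 to 65.4), 63.5% (62.8 to 64.1) and 62.3% (58.3 to 66.1), so the order did not hold for strong regions.

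The isolated primed regions also lay nearer to genes than their hTBLC counterparts. Within 50 kb of a protein-coding gene end lay 56.0% (54.7 to 57.3), compared with 42.3% (41.1 to 43.6) of isolated wide hTBLC and 65.5% (65.1 to 65.8) of other wide primed regions. Over 200 kb away lay 16.1% (15.2 to 17.1), 24.6% (23.5 to 25.7) and 11.8% (11.5 to 12.1). A lncRNA gene was overlapped by 16.2% (15.2 to 17.2), against 19.3% of other wide primed regions. tRNA genes were overlapped by 2 regions, 0.0350% against 0.329% of other wide primed regions, and miRNA genes by 4, 0.0701% against 0.236%.

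**Figure D3:**
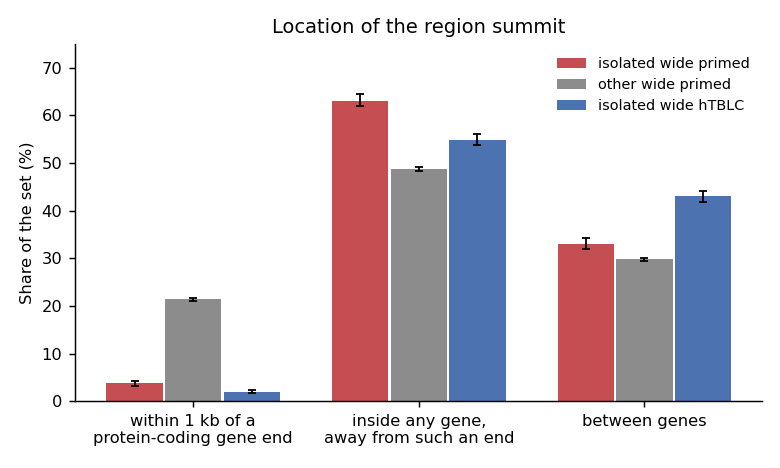
Share of each set (percent, with Wilson 95% intervals) whose summit lay within 1 kb of a protein-coding gene end, inside any gene away from such ends, or between genes. Isolated wide primed regions stand at 3.78%, 63.1% and 33.1%, other wide primed regions at 21.4%, 48.8% and 29.8%, and isolated wide hTBLC regions at 2.07%, 54.9% and 43.0%.

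The isolated share of wide primed regions differed little between chromosomes, from 7.46% (6.34 to 8.77) on chromosome 19 to 11.1% (9.26 to 13.3) on chromosome 22. The mirrored share in hTBLC ranged more widely, from 5.15% (4.17 to 6.33) on chromosome 19 to 12.7% (11.7 to 13.8) on chromosome 4. On the gene-rich chromosomes 17, 19 and 22, 61.8%, 61.9% and 62.1% of the isolated wide regions of both libraries were primed ones. On chromosome 4 this was 39.3%, and over all chromosomes 47.3%. Chromosome X stood at 9.06% in primed and 10.4% in hTBLC.

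**Figure D4:**
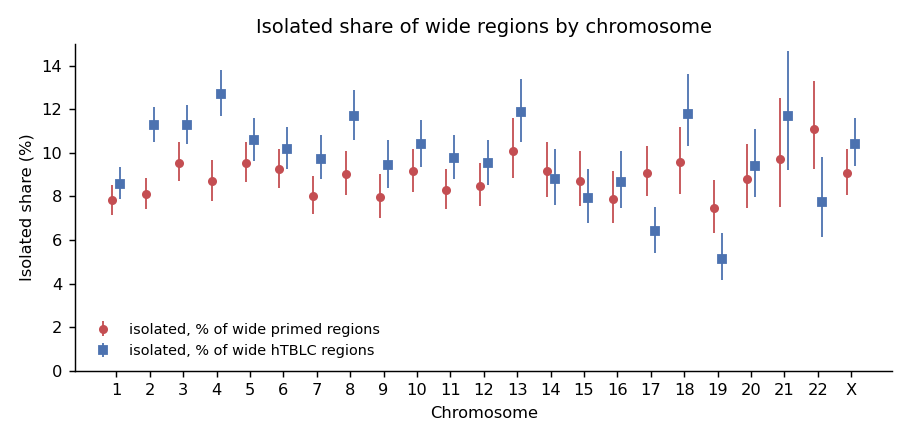
Percent of wide regions that were isolated on each chromosome, for the primed and the hTBLC library, with Wilson 95% intervals. Primed values lie between 7.46% and 11.1%, and they exceed the hTBLC values with separate intervals on chromosome 17 and barely on chromosome 19.

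Isolated wide primed regions were scattered, with a median gap of 294133 bp to the next one on the chromosome. Of 5708 with a following wide primed region, 593 were followed by another isolated one, 10.4% (9.62 to 11.2), against the 8.74% of all wide primed regions. For following regions of pileup 40 and over, this was 3.14% (2.54 to 3.86) against 2.13%. For those from 20 to under 40 it was 11.2% (9.80 to 12.7) against 9.82%, and for those under 20 25% (22.7 to 27.5) against 23.9%, where both intervals include the background. In hTBLC the share was 14.4% (13.6 to 15.3) against 10%. Joined over gaps of up to 50 kb, 1314 regions (23%) fell into 607 clusters, 525 of 2, 68 of 3 and 14 of 4 or more.

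The largest cluster, 6 regions over 157892 bp (chr11:70771310-70929201), lay at SHANK2, a postsynaptic scaffold gene. Its pileups along the chromosome were 20, 62, 67, 25, 9 and 29, and 12 hTBLC regions lay between them. At ADGRL3, an adhesion receptor gene of neurons, 5 regions (chr4:61759927-61832245) had pileups of 23, 27, 26, 22 and 10, with 7 hTBLC regions between them. At these genes, isolated regions alternated with regions called in hTBLC.

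Other clusters held few or no hTBLC regions. At TERF1, which encodes a telomere-binding protein of the shelterin complex, all 5 wide primed regions over 32132 bp (chr8:73019564-73051695) were isolated, and no hTBLC region lay among them. Their pileups were low, 9, 18, 13, 13 and 15, and 4 of the 5 lay inside the gene. At −10.8 kb from the first of them, close to an end of TERF1, both libraries had a region of pileup 259. On chromosome 19, 4 regions over 76563 bp (chr19:57651381-57727943) lay by ZSCAN4, a gene of the 8-cell stage, and at the starts of ZNF154 and ZNF671. Their pileups were 15, 9, 92 and 64, with 2 hTBLC regions among them.

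**Figure D5:**
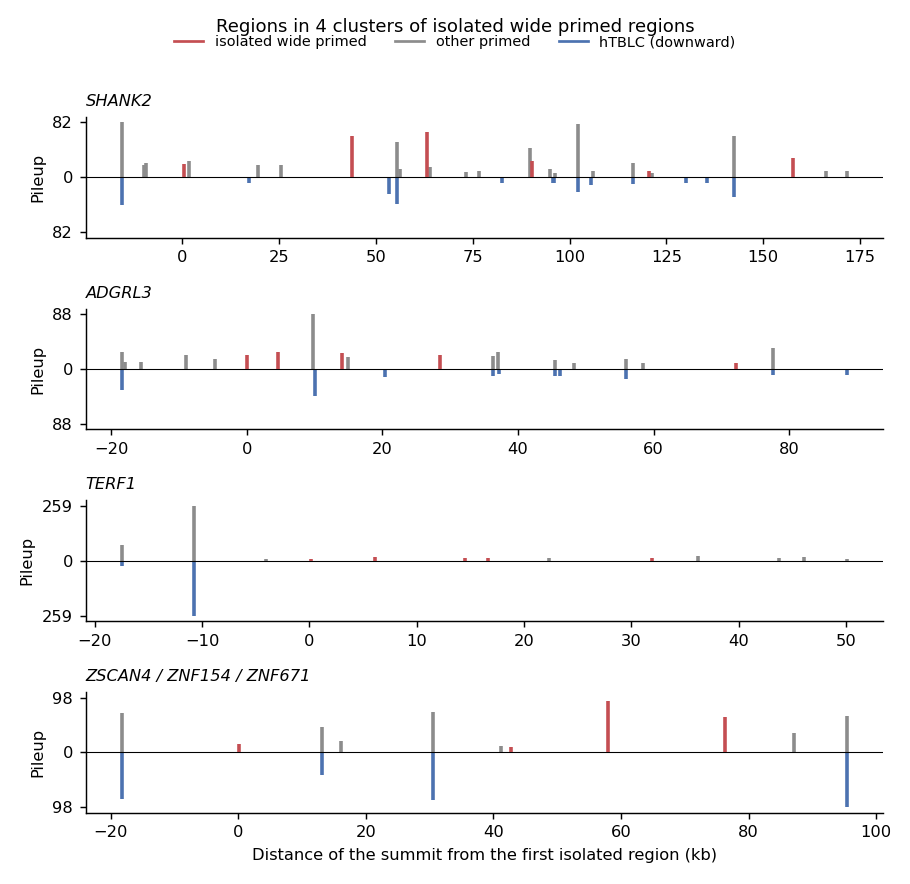
Summit pileup of each region (upward, isolated wide primed in red and other primed in grey; downward, hTBLC in blue) against distance in kb from the first isolated region, in 4 clusters of isolated wide primed regions. At TERF1 no hTBLC region lies between the isolated regions, while 12 do at SHANK2 and 7 at ADGRL3.

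The strongest isolated wide primed regions were mostly distal. The highest pileup, 184 (158 to 213), was at chr5:126057017-126057650, inside an annotated gene that is not protein-coding and 302719 bp from GRAMD2B, the closest protein-coding gene. The second, 177 (152 to 205), was inside DLGAP2, a synaptic scaffold gene on chromosome 8. The third, 170 (145 to 198), was inside VPS41, a gene of lysosomal traffic, and the fourth, 160 (136 to 187), inside FUT9, a fucosyltransferase gene. TRIB1, a pseudokinase gene, followed with 153 (130 to 179) between genes, 14371 bp away. The next 5 lay inside PDZD8, a lipid transfer protein gene, with 146, ZNF532 with 144, SFXN5, a mitochondrial carrier gene, with 137, STARD10, a lipid-binding protein gene, with 126, and GTF2IRD1, a transcription factor gene, with 125. The distance to the nearest hTBLC region ran from 1025 bp at PDZD8 to 16294 bp at VPS41.

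The widest regions were mostly weaker. The widest, 1642 bp at chr2:67340194-67341835, lay 56628 bp from ETAA1, an activator of the ATR kinase, with a pileup of 117 (96.8 to 140) over a high local background of 17.9. The second, 1571 bp at chr3:46585938-46587508, lay 9089 bp from the start of CRIPTO, which encodes the NODAL co-receptor of pluripotent cells. It had 4 summits and a pileup of 44 (32.0 to 59.1), and the nearest hTBLC region was 10472 bp away. The start of CRIPTO itself was open in both libraries, at 83 in primed against 17 in hTBLC cells, a depth-scaled hTBLC to primed ratio of 0.19. The start of ZNF532, named above, went the other way, at 31 in primed against 61 in hTBLC cells. Others were nearest to ANOS1 (1501 bp, pileup 21), the ephrin receptor gene EPHA7 (1476 bp, 18), the NKG2D ligand gene ULBP2 (1439 bp, 35), SRGN (1425 bp, 17), PKN2 (1389 bp, 22), the homeobox gene GSX1 (1353 bp, 23), ACP7 (1348 bp, 16) and TRIB1 (1335 bp, 153).

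Each region within 50 kb was given to the protein-coding gene of the nearest end. Of 19974 genes, 2799 had at least 1, or 14%. Of these 2453 had 1, 306 had 2, 32 had 3, 5 had 4 and 3 had 5. Over all wide primed regions given to a gene, 7.57% were isolated. MRGPRX1, a sensory neuron receptor gene, had 4 of 5, with pileups of 22, 39, 67 and 22 and no hTBLC region among them over 61835 bp. TERF1 had 5 of 7.

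BCL11B, a transcription factor gene of T cells and neurons, had 5 of 9, with pileups of 13, 40, 33, 15 and 22. PLEKHG3 had 5 of 8, with pileups of 12, 85, 31, 62 and 75, and the last 3 lay inside the neighbouring spectrin gene SPTB. BLTP3B had 4 of 8, with 8, 39, 118 and 37. PTPRF, a receptor phosphatase gene, had 4 of 10, with 34, 22, 12 and 36. LOC124904333 had 4 of 6, all inside NFATC1, with 11, 16, 9 and 22. Of the 32 genes with 3, those with the highest summed pileup were ZNF532 of 9, SORL1 of 10, MYH14 of 5, PDK1 of 5, FGF12 of 7, PHF21B of 9 and CIROZ of 8.

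By position inside protein-coding genes, 9.93% of wide primed regions were isolated. In SHANK2 8 of 24 wide primed regions were isolated, and in NFATC1, a calcineurin-regulated transcription factor gene, 5 of 10. The intestinal gene MALRD1 also had 5 of 10, PTPRG, a receptor phosphatase gene, 7 of 19, and EFNA5, an ephrin gene, 5 of 12. In the long genes DLG2 with 7 of 52, DAB1 with 6 of 43 and NRXN3 with 6 of 49, the shares were nearer to the background.

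Pluripotency genes were described first among the gene lists. Of 26 core pluripotency genes, 8 had at least 1 isolated wide primed region, or 30.8% (16.5 to 50) against 14% of all genes. Such genes have more wide regions near them, and of the 93 wide primed regions given to the list 12 were isolated, 12.9% (7.54 to 21.2) against 7.57%, of which TERF1 supplied 5. A high share of genes was not particular to this list. It was 39.1% (22.2 to 59.2) for trophectoderm, 38.1% (20.8 to 59.1) for mesoderm, 37.5% (22.9 to 54.7) for cell adhesion and 31.2% (18.0 to 48.6) for axon guidance genes. The 8-cell, fibroblast and spliceosome lists lay below 14%, at 6.90%, 6.25% and 3.57%. In the core list GDF3, a growth factor gene of the NODAL pathway, had 1 region of 751 bp and pileup 29 (19.4 to 41.6) 995 bp from its start. Of 26 primed-state markers 7 had one, and 10 of 110 wide regions were isolated, 9.09% (5.01 to 15.9). Among them NLGN4X, a neuroligin gene, had 3, with pileups of 14, 14 and 10, and KDR, the VEGF receptor gene, had 2 of pileup 22. Of 29 naive markers 7 had one, with 9 of 69 wide regions isolated, 13% (7.02 to 23). TBX3 had 2, of 34 and 31, and TFCP2L1, a transcription factor gene of the naive state, had 2, of 14 and 15, while its start stood at 63 in primed and 31 in hTBLC, a scaled ratio of 0.45. Of 29 genes of the 8-cell stage 2 had one, H3Y1 with a pileup of 18 and ZSCAN4 with 15, each at a gene end.

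Lineage genes came next. Of 24 neural genes 6 had an isolated wide primed region, and 9 of 89 wide regions were isolated, 10.1% (5.41 to 18.1). RAX, an eye field homeobox gene chosen here after its values were seen, had 1 of pileup 84, and its start stood at 91 in primed against 47 in hTBLC cells, a scaled ratio of 0.47. Of 21 mesoderm genes 8 had one, with 10 of 73 wide regions isolated, 13.7% (7.61 to 23.4), including 2 at FOXF1, of 15 and 19, and 1 each within 1 kb of an end of MESP1 and of TBX1, of 15 and 16, which lay inside the neighbouring genes WDR93 and GNB1L. Of 23 trophectoderm genes 9 had one, with 9 of 78, 11.5% (6.19 to 20.5), including 1 of pileup 58 (44.0 to 75) at a start of TFAP2A over a local background of 17.3. A start of TFAP2A was also open in hTBLC, with a pileup of 23, in a region that did not overlap the primed one. Of 19 endoderm genes 4 had one, with 5 of 74, 6.76% (2.92 to 14.9), including 2 at GATA4, of 19 and 24. Of 16 fibroblast genes 1 had one, with 1 of 43, 2.33% (0.412 to 12.1).

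Among signalling and adhesion lists, the NODAL and TGF beta pathway had 7 of 84 wide regions isolated, 8.33% (4.10 to 16.2), with 2 at SMAD2, of 18 and 11. The FGF pathway had 8 wide regions isolated, 7.92% (4.07 to 14.9), with 3 at FGF12, of 28, 21 and 59, and 2 at FGFR2, of 10 and 31. The WNT pathway had 6 of 122, 4.92% (2.27 to 10.3). Cell adhesion genes had 17 of 144, 11.8% (7.50 to 18.1), including 2 each at CDH3, of 27 and 19, CDH6, of 13 and 12, and PCDH9, of 10 and 20. Axon guidance genes had 13 of 172, 7.56% (4.47 to 12.5), including 3 at EFNA5, of 25, 9 and 7, and 2 at NRP2, of 14 and 27. Spliceosome genes had 1 of 38. The intervals of 14 of the 15 lists included the 7.57% of all genes, and that of the mesoderm list began just above it.

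The start of the nearest gene was compared between the libraries. A ratio was taken only where the start was open in both libraries and the regions there overlapped. Of 2285 genes with isolated wide primed and no isolated wide hTBLC regions, 1351 had one. Starts open in 1 library only are not covered, such as H3Y1 with 18 in primed and 0 in hTBLC, and BCL11B with 0 and 24. Also left out are genes such as FGF12, with 122 in primed and 107 in hTBLC, where the regions did not overlap. The starts given above for CRIPTO, TFCP2L1 and RAX were all lower in hTBLC. Those of CDH2, at 56 in primed and 131 in hTBLC, and of DNMT3B, at 49 and 85, were higher. Their scaled ratios were 2.14 and 1.58. Over the 1351 genes, the depth-scaled log2 ratio of hTBLC to primed pileup had a median of 0.03 (quartiles −0.27 and 0.31). The median was 0.03 over 8798 genes with neither kind, −0.02 over 219 genes with at least 2 isolated wide primed regions and 0.10 over 1045 genes with isolated wide hTBLC regions alone. The ratio was below 0, that is lower in hTBLC, for 46.9% (44.3 to 49.6) of the genes with isolated wide primed regions alone and for 46.8% (45.8 to 47.8) of those with neither kind. It was below 0 for 41.2% (38.3 to 44.3) of the genes with isolated wide hTBLC regions alone. The first 2 shares have overlapping intervals. The interval of the last meets that of the first at 44.3 and lies below that of the second.

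Narrow primed regions around isolated wide primed regions were isolated about as often as narrow primed regions over all. Of primed regions under 500 bp, 35.0% lay over 1000 bp from any hTBLC region. At 2 to 5 kb from an isolated wide primed region this was 36.7% (34.7 to 38.7), at 5 to 10 kb 36.3% (34.9 to 37.8), and at 20 to 50 kb 35.2% (34.6 to 35.8). At the same distances from other wide primed regions it was 37.5% (36.8 to 38.3), 37.5% (36.9 to 38.0) and 39.1% (38.7 to 39.6). From isolated wide hTBLC regions it was 40.7% (38.8 to 42.7), 30.2% (28.9 to 31.6) and 32.3% (31.7 to 32.9). Beyond 5 kb the shares were thus higher around the isolated primed set than around the isolated hTBLC set, and this difference was not tested. Wide primed regions that overlapped an hTBLC region had a median log2 hTBLC to primed ratio of −0.20 over all. From isolated wide primed regions it was −0.20 at 2 to 5 kb, −0.29 at 5 to 10 kb, −0.27 at 10 to 20 kb and −0.25 at 20 to 50 kb. From isolated wide hTBLC regions it was −0.40, −0.13, −0.13 and −0.18. Beyond 5 kb the medians were lower around the primed set than around the hTBLC set, and this difference was not tested.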

How the data were processed

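ATAC-seq peak lists of 1 primed and 1 hTBLC library were used, each called separately. The tools MACS2, Bowtie2 and Picard and the genome build hg38 are given per the submitters' processing notes, without versions or settings. How reads were shifted, filtered or de-duplicated is not given in the sources used here. Per peak, the authors deposited a fold ratio of summit over local background, a −log10 p-value, a −log10 q-value and a summit offset in bp. The deposited score was not used.

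Whole pileups and local backgrounds were solved from fold and −log10 p with a Poisson tail, which gave whole values for 99.999% of primed and 99.998% of hTBLC peaks within 0.001. Total reads were not analysed here. The most frequent lowest background, 1.79 in primed and 1.96 in hTBLC, gave the relative depth of 1.09. The primed list ends at rank 296005 and −log10 p of 2.00, and the hTBLC list at rank 300000 and 2.83. In each list 16 peaks on other chromosomes were left out, and 252 primed and 327 hTBLC ranks have no line.

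Genes came from a RefSeq table of GRCh38.p14, which has no exons. Start windows were available for 15812 of 19974 protein-coding genes (79.2%), with none on chromosome 8. Sequences of distal regions were not analysed here. Scripts used Python 3.11.15, pandas 2.3.3 and scipy 1.17.1 and were tested on simulated data.

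The regions, gene lists and motifs were chosen with earlier results of these data known. Named genes were the 15 with most isolated regions, those at the 10 strongest and 10 widest regions, at the 5 clusters with most regions and at the 10 strongest regions at starts, and list genes with 2 or more regions or 1 at a gene end. The host genes, and other genes outside this rule such as AP1M2, RAX, CDH2, DNMT3B, TWIST2 and the meiotic and interferon-response genes, were chosen after their values were seen. One named gene is not reported here. Alternatives changed the distance, width, q-value threshold, merging, chromosomes, windows and pileup range.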

Additional observations from a re-analysis of the deposited data

How the results depend on the processing

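Both libraries are single, so no value here has a replicate check. No paired analysis was possible because each group has 1 library and no test was made. The set depends on its limits, while its place in the genome moved less. The main values were 5710 regions, 8.74% of wide primed regions, 2799 genes, a median pileup of 18, 3.78% at gene ends, 63.1% inside genes, 10.4% followed by an isolated region, 23% in clusters and 47.3% primed among the isolated wide regions of both libraries. The cause of each shift was not tested beyond what the setting itself changes.

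A distance of over 0 bp gave 11.3% of wide regions, 4.84% at gene ends, 12.4% followed and 28.5% in clusters. Over 500 bp gave 9.77% of wide regions and 24.9% in clusters. Over 2000 bp gave 7.13%, with 9.13% followed and 19.5% in clusters. Over 5000 bp gave 2801 regions, 4.29%, 1411 genes, 64.8% inside genes, 6.82% followed, 13.1% in clusters and 45.3% primed. Over 10000 bp gave 1252 regions, 1.92%, 615 genes, 6.31% followed, 10.3% in clusters and 43.6% primed.

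A width of 400 bp gave 12254 regions, 13.1%, 5076 genes, pileup 15, 3.16% at gene ends, 15.9% followed and 41.1% in clusters. At 750 bp there were 1009 regions, 3.71%, 570 genes, pileup 22, 5.55% at gene ends, 60% inside genes, 5.56% followed, 5.85% in clusters and 48.9% primed. At 1000 bp there were 146 regions, 1.28%, 89 genes, pileup 26, 6.16% at gene ends, 54.8% inside genes, 3.45% followed, 2.05% in clusters and 45.9% primed.

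A −log10 q of at least 5 in both lists gave 9664 regions, 16.0%, 4267 genes, pileup 22, 4.43% at gene ends, 61.5% inside genes, 18.7% followed, 35.4% in clusters and 51.3% primed. At least 10 in both gave 10670 regions, 20.8%, 4734 genes, pileup 30, 5.50% at gene ends, 59.5% inside genes, 23.9% followed, 38.7% in clusters and 51.0% primed. Both counts rose because hTBLC regions were removed too. With the threshold of 5 on primed alone the values were 7.30%, pileup 22, 8.37% followed, 18.8% in clusters and 26.5% primed. With 10 on primed alone there were 2682 regions, 5.23%, 1391 genes, pileup 29, 61.3% inside genes, 6.15% followed, 11.8% in clusters and 11.8% primed.

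Of isolated wide primed regions under a pileup of 20, 64.4% were inside genes. From 20 to under 40, 2.99% were at gene ends. At 40 and over the values were 5.03% at gene ends and 58.6% inside genes. The share followed was split by the pileup of the following wide primed region instead. It was 25% for following regions under 20, against a background of 23.9%, and 3.14% for those of 40 and over, against 2.13%. Gene end windows of 500 and 2500 bp gave 2.26% and 7.85% at gene ends, and the latter 60.7% inside genes. Genes within 10 kb numbered 1201. Cluster gaps of 20 and 100 kb gave 10.3% and 39.1% in clusters. A common −log10 p floor of 2.83, which can restore no unlisted hTBLC peak, gave 46.3% primed, and joining across 100 bp gave 46.2%. All other values, including every one without chromosome X, moved by less than their interval or, for counts, by less than 1.5 times.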
